A study of Caenorhabditis elegans with 45 samples.

Results

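The G11U strain of Caenorhabditis elegans, in which the 11th base of the let-7 miRNA is changed from G to U, was compared with wild type (WT) by small RNA sequencing. Both groups were chosen by their genotype labels. They hold 3 libraries each, named A, B and C, of the 45 libraries of the series. Bases are counted from 1 at the 5′ end of mature let-7.

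RNA came from whole animals at the mid L4 larval stage, the last larval stage before adulthood, grown at 20 °C for 45 hours after feeding on Escherichia coli HB101. WT is strain VT1367, labelled maIs105 V. G11U is strain VT3793, labelled with mnDp1(umnIs25) (X;V), with +/+ and maIs105 V, and with the allele let-7(ma431) on X. Both groups therefore carry maIs105, known as a col-19::gfp reporter of adult skin, and only G11U carries the mnDp1 label. In worm genetics Dp names a duplication, and (X;V) a piece of the X chromosome attached to chromosome V. The labels do not give its extent. Against WT, the base change and the mnDp1 label cannot be told apart. The other 5 strains with the mnDp1 label, G12U, U13A, U14A, G15A and U16G, also have a changed base in let-7 and are used as a second reference. The labels do not say that replicates came from separate cultures, so p-values measure the spread between these libraries, which may be technical.

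let-7 is a miRNA of the heterochronic pathway, which times larval development in the worm. It accumulates late in larval life and represses lin-41, among other mRNAs, so that skin cells take on adult fates. A miRNA finds its targets mainly through the seed at its 5′ end, and let-7 shares its seed with mir-48 (listed as lin-58), mir-84, mir-241 and others. The base changed in G11U lies outside the seed, so the family seed is intact in both forms. In the annotation of WBcel235, matched by gene ID, the let-7 precursor is encoded by the minus strand of chromosome X, from 14744173 to 14744271. The mature miRNA spans 14744234 to 14744255, and its 11th base is 14744245. The processed files name no build.

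The counts of miRNA reads summed to between 1319030 and 2158302 per WT library and between 1960161 and 2327451 per G11U library. Of 257 miRNA genes, 61 were listed at 0 in all 45 libraries. These 61 include lin-4, the muscle miRNA mir-1 and the intestinal miRNA mir-60, which worms at this stage are known to make, so a 0 in this table is not read as absence. U9G replicate B, a library of another strain, stood apart, with a correlation of 0.867 with the median of the other libraries where the next lowest had 0.981. It enters the shared estimate of the spread, so most main results are given with and without it. In whole animals, fewer cells of a type and less RNA per cell cannot be told apart.

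G11U animals carried both forms of let-7, the mutant form at about 1.85 times the level of the wild-type form. Each G11U library held less wild-type let-7 than any WT library. The summed level of the forms in G11U was 78.6% of the WT level.

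The wild-type form stood at 32794, 21518 and 26661 reads per 1000000 miRNA reads (RPM) in WT A, B and C. In G11U A, B and C it stood at 7351, 7354 and 7662 RPM. The groups did not overlap, and the G11U libraries lay far closer to each other than the WT libraries did. The means were 26991 ± 5645 RPM in WT and 7456 ± 178 RPM in G11U (SD, n = 3 each), which put the wild-type form in G11U at 27.6% of its WT level. The exact two-sided permutation p was 0.1, the smallest that 3 against 3 libraries allow (0.175 after Benjamini-Hochberg adjustment over 7 such tests of let-7 levels). With the wild-type form in place of the let-7 count, a setting added after seeing the data, edgeR gave a log2 change of -2.06 (SE 0.504, edgeR adjusted p = 0.0162). In that setting without U9G replicate B it was -1.99 (edgeR adjusted p = 0.00225).

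The mutant form stood at 12458, 13790.5 and 15068 RPM in G11U A, B and C. The WT libraries listed 0 mutant reads, with no statement of the mutant form that was searched for there. The sum of the forms was 19809, 21144 and 22730 RPM in G11U, so G11U C exceeded WT B while G11U A and B lay below all WT libraries. The sum averaged 21228 ± 1462 RPM in G11U (SD, n = 3), and its difference from WT had an exact two-sided permutation p of 0.2 (0.28 adjusted over the 7 tests). Fitted by edgeR, the sum differed by a log2 change of -0.50 (SE 0.246, edgeR adjusted p = 0.758), and by -0.28 (edgeR adjusted p = 0.994) without WT A, the library with the most let-7. Without U9G replicate B the interval was -0.85 to -0.14, with an edgeR adjusted p of 0.145.

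Of the let-7 reads, the wild-type form made up 37.1% in G11U A, with a Wilson 95% interval of 36.7% to 37.6%. It made up 34.8% in G11U B (34.3% to 35.2%) and 33.7% in G11U C (33.3% to 34.1%). The intervals cover counting error only, and none of them overlaps another, so the libraries differed by more than counting error. The mean share was 35.2% ± 1.74 (SD, n = 3).

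**Figure D1:**
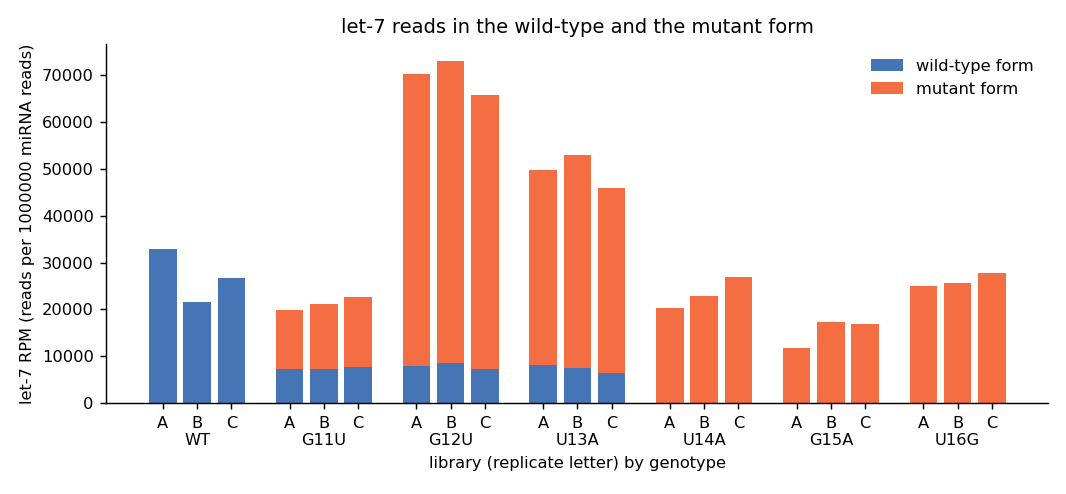
let-7 reads per 1000000 miRNA reads (RPM, vertical axis) in each library of WT and the 6 strains labelled mnDp1 (horizontal axis), as stacked bars of the wild-type form (blue) and the mutant form (orange). The blue bars have nearly the same height in G11U, G12U and U13A, while the orange bars are shortest in G11U among these 3 strains.

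The form named by the genotype, here called the encoded form, is the wild-type form in WT and the mutant form in G11U. It leaves out the wild-type reads of G11U, on average 35.2% of its let-7 reads. A part of let-7 in G11U is therefore set against all let-7 in WT. The encoded form was then compared by edgeR's quasi-likelihood test on normalised counts per 1000000 (CPM). Its level was 35086, 21761 and 27660 normalised CPM in WT A, B and C. In G11U A, B and C it was 11167, 13440.0 and 14086 normalised CPM. Every G11U library lay below every WT library. The log2 change was -1.13 (SE 0.249, 95% interval -1.63 to -0.62, edgeR adjusted p = 0.00464). Without U9G replicate B it was -1.11 (edgeR adjusted p = 5.94e-05). The call was lost without WT A, at -0.89 (edgeR adjusted p = 0.159). It was also lost without G11U A, the library with the least, at -1.04 (edgeR adjusted p = 0.0777), and in a fit of the 6 libraries alone, at -1.18 (edgeR adjusted p = 0.0719).

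Of the strains labelled mnDp1, G12U and U13A also held wild-type let-7. The wild-type form stood at 8040, 8624 and 7317 RPM in G12U A, B and C and at 8061, 7496 and 6436 RPM in U13A A, B and C. The G11U range lay within the range of each. The G11U mean differed by -538 RPM from the G12U mean of 7994 ± 655 (exact two-sided permutation p = 0.4, 0.467 adjusted over the 7 tests). It was 125 RPM above the U13A mean of 7331 ± 825 (exact two-sided permutation p = 0.9, also 0.9 adjusted). These p-values do not show equal levels. In U14A, G15A and U16G the wild-type form averaged 20.9, 46.3 and 11.9 RPM, far below G11U.

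The mutant form separated G11U from G12U and U13A. It averaged 13772 ± 1305 RPM in G11U, 61659 ± 2951 RPM in G12U and 42172 ± 2992 RPM in U13A (SD, n = 3 each). The level in G11U was 22.3% of that in G12U and 32.7% of that in U13A. By edgeR the log2 difference was -2.34 from G12U (95% interval -2.87 to -1.82, edgeR adjusted p = 1.77e-08) and -1.74 from U13A (95% interval -2.26 to -1.23, edgeR adjusted p = 8.32e-06). Against the mean of the other 5 mnDp1 strains it was -1.21 (95% interval -1.63 to -0.78, edgeR adjusted p = 0.000233). Without U9G replicate B the differences from G12U, U13A and the mean of the 5 strains were -2.29, -1.67 and -1.17. Those 5 did not all lie above G11U. The mutant form averaged 23344 ± 3313 RPM in U14A and 26130 ± 1401 RPM in U16G, without overlap with G11U, but 15307 ± 3038 RPM in G15A (SD, n = 3 each). The G15A libraries, from 11803 to 17203 RPM, overlapped those of G11U, and this pair was not tested. The share of wild-type reads, 35.2% in G11U, was 11.5% ± 0.352 in G12U and 14.8% ± 1.25 in U13A (SD, n = 3 each).

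The main miRNA table has a let-7 row of its own, for which the counting rule is not stated. In G11U A, B and C that row held 22344, 21141 and 20841 reads. These are 1.31, 1.34 and 1.39 times the reads of the wild-type form and 0.485, 0.467 and 0.468 times the reads of both forms together. In WT the row was 1.29, 1.28 and 1.41 times the wild-type form, a range that overlaps that of G11U. In G12U the row was 1.04 to 1.07 times both forms together and in U13A 1.19 to 1.22 times. With this row as the let-7 count, the log2 change of G11U against WT was -1.99 in place of -1.13. Beside G11U, the row lay below the encoded form in all libraries of A10U and G15A, 3 genotypes in all.

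Apart from let-7, few miRNAs separated G11U from WT. Of 129 tested, 1 passed an adjusted p of 0.05 by edgeR (0.775% of the miRNAs tested), and it was higher in G11U. Without U9G replicate B it was 5 of 133, all higher (3.76%), and with the replicate letter as a block 2 of 129 (1.55%). At an unadjusted p under 0.05 there were 7 (5.43%), of which 4 were higher (3.1%) and 3 lower (2.33%), and without U9G replicate B there were 12 (9.02%). The 3 G11U libraries all lay above the 3 WT libraries for 10 miRNAs (7.75%) and below them for 6 (4.65%). The log2 changes of the 129 had a median of -0.02, with 63 above 0 (48.8%).

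**Figure D2:**
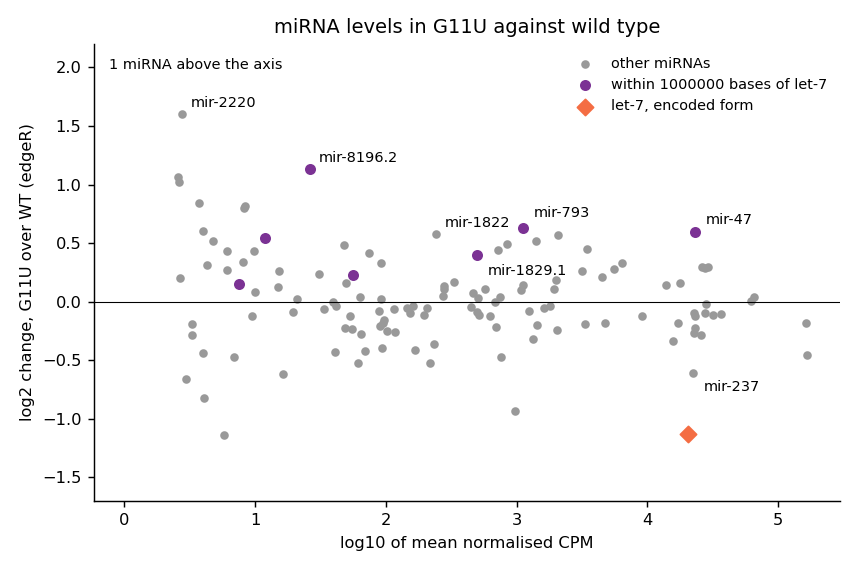
Log2 change of each tested miRNA in G11U over WT (vertical axis, edgeR) against the log10 of its mean normalised CPM (horizontal axis), with let-7 in its encoded form (orange diamond) and the 7 miRNAs within 1000000 bases of let-7 (purple). let-7 lies at -1.13 and mir-8196.2 at 1.13, while mir-8200, above the axis, had 0 reads in WT and rests on 13 reads in 1 G11U library and 1 in another.

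The miRNA that passed was mir-8196.2, on chromosome X, inside an intron of prx-1, a gene on the opposite strand named for a peroxisome assembly factor. Its precursor lies at 14324406 to 14324470 on the minus strand (WBcel235). It stood at 16.9, 16.4 and 15.7 normalised CPM in WT A, B and C and at 42.0, 32.3 and 33.4 in G11U A, B and C. The groups lay well apart, on 20 to 34 reads per WT library and 70 to 109 per G11U library. It rose by a log2 change of 1.13 (SE 0.228, 95% interval 0.67 to 1.60, edgeR adjusted p = 0.00237). Without U9G replicate B the value was 1.17 (edgeR adjusted p = 0.00061). The call was lost without G11U A, at 1.00 (edgeR adjusted p = 0.0567), and in a fit of the 6 libraries alone, at 1.09 (edgeR adjusted p = 0.102). Reads could be split with its paralog mir-8196.1, so its count is uncertain.

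The other 4 miRNAs called without U9G replicate B were mir-1829.1, mir-793, mir-47 and mir-1822. mir-1829.1, in an intron of gas-1 on the same strand (a gene for a subunit of mitochondrial complex I), stood at 417, 431 and 440 normalised CPM in WT A, B and C. In G11U A, B and C it stood at 571, 581 and 547, all above WT. The log2 change was 0.40 (SE 0.129, edgeR adjusted p = 0.150) over all 45 libraries and 0.43 (edgeR adjusted p = 0.0166) without U9G replicate B. It also passed by DESeq2's Wald test (adjusted p = 0.00695), which with mir-8196.2 called 2 of 129 (1.55%). Near-identical copies, mir-1829.2 and mir-1829.3, could share its reads.

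mir-793, a member of the let-7 seed family, stood at 988, 992 and 655 normalised CPM in WT A, B and C. In G11U A, B and C it stood at 1403, 1526 and 1142. The G11U libraries all lay above WT, with a log2 change of 0.63 (SE 0.338, edgeR adjusted p = 0.759) over all libraries and 0.66 (SE 0.165, edgeR adjusted p = 0.0148) without U9G replicate B. mir-47, which shares its seed with mir-46, stood at 14439, 21902 and 18871 normalised CPM in WT and at 27008, 23269 and 33260 in G11U, again without overlap. Its log2 change was 0.60 (edgeR adjusted p = 0.759) over all libraries and 0.63 (edgeR adjusted p = 0.0245) without U9G replicate B. Leaving out that library lowered the standard error of mir-793 from 0.338 to 0.165 and of mir-47 from 0.353 to 0.174 while the log2 changes moved little.

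mir-1822, on chromosome II, was the autosomal miRNA among the 5. It stood at 157, 202 and 224 normalised CPM in WT A, B and C and at 234, 302 and 334 in G11U. The lowest G11U library lay just above the highest WT library. The log2 change was 0.58 (edgeR adjusted p = 0.417) over all libraries and 0.61 (edgeR adjusted p = 0.0419) without U9G replicate B.

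Of these 5 miRNAs, mir-8196.2, mir-1829.1, mir-793 and mir-47 lie within 1000000 bases of let-7 on X. The miRNA table holds 10 other genes in that window, of which 7 passed the filter on low counts. All 7 of the tested had a log2 change above 0, with a median of 0.54 (0.58 without U9G replicate B). For 4 of the 7 the groups did not overlap, beside 7.75% of all tested miRNAs that lay higher without overlap. The remaining 3 tested, mir-1829.2 at 0.15, mir-1829.3 at 0.22 and mir-4812 at 0.54, overlapped between the groups. mir-1829.3 and mir-4812 both lie in introns of piki-1, a lipid kinase gene. This window was chosen with earlier results known, so its counts are a description.

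Farther away on X, 22 of 41 tested miRNAs were above 0, with a median of 0.04. On the autosomes 34 of 81 were above 0, with a median of -0.05. In single G11U libraries, the median log2 ratio of the 7 to the WT mean was 0.41, 0.34 and 0.50 in A, B and C. A window of 500000 bases gave a median of 0.38 over 4 miRNAs and 1 of 2000000 bases gave 0.15 over 13. With scaling by total counts, which moves the median of all tested miRNAs from -0.02 to 0.12, 30 of the 41 were above 0 (median 0.19), as were 52 of the 81 (median 0.08). The 7 near let-7 were all above 0 under each scaling tried, with a median of 0.67 by total counts.

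**Figure D3:**
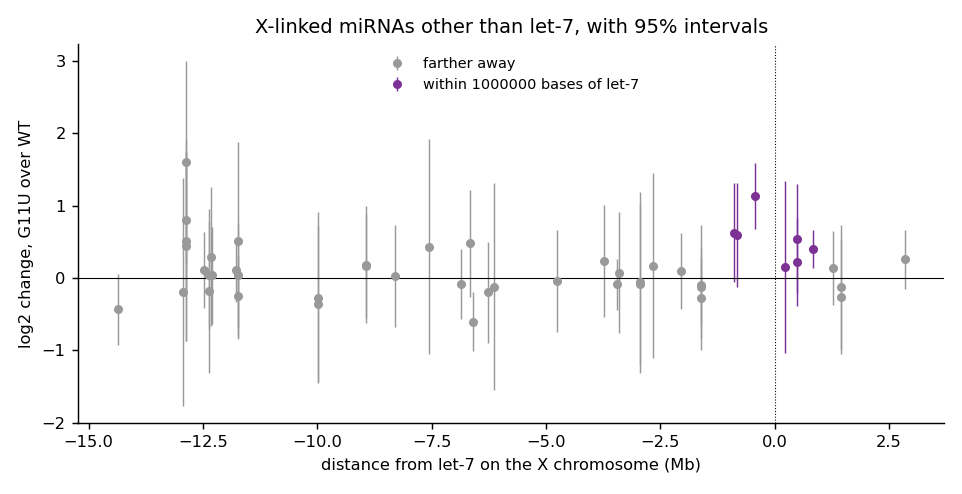
Log2 change in G11U over WT (vertical axis, points with 95% intervals from edgeR) of each tested X-linked miRNA other than let-7 against its distance from let-7 in Mb (horizontal axis). The 7 points within 1000000 bases (purple) all lie above 0, with a median of 0.54, and the 41 farther points (grey) lie on either side of 0.

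The same 7 miRNAs had medians of 0.54 in G12U and 0.55 in U13A, each with 7 of 7 above 0. In U14A the median was 0.04, in G15A -0.29 and in U16G 0.06, with 4, 3 and 4 of 7 above 0. All these comparisons share the 3 WT libraries, so the values stand side by side and their likeness was not tested. G11U, G12U and U13A also held more wild-type let-7 than U14A, G15A and U16G, though only 27.6%, 29.6% and 27.2% of its WT level. A link between these values was not tested.

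mir-8196.2 averaged 35.9 ± 5.30 normalised CPM in G11U, 31.6 ± 5.14 in G12U and 29.5 ± 3.01 in U13A (SD, n = 3 each). It averaged 21.5 ± 4.07 in U14A, 19.2 ± 1.76 in G15A and 17.0 ± 2.65 in U16G. mir-1829.1 averaged 566 ± 17.9 in G11U, 529.7 ± 29.7 in G12U and 519 ± 30.0 in U13A, followed by 427 ± 24.1 in U16G, 403 ± 15.4 in U14A and 347 ± 51.3 in G15A. For both miRNAs the means of G11U, G12U and U13A lay above those of the other 3 strains. mir-1822 was ordered otherwise, with means of 290 in G11U, 319 in G12U, 308 in G15A, 277 in U13A, 255 in U16G and 209 in U14A. Its WT mean was 194.

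**Figure D4:**
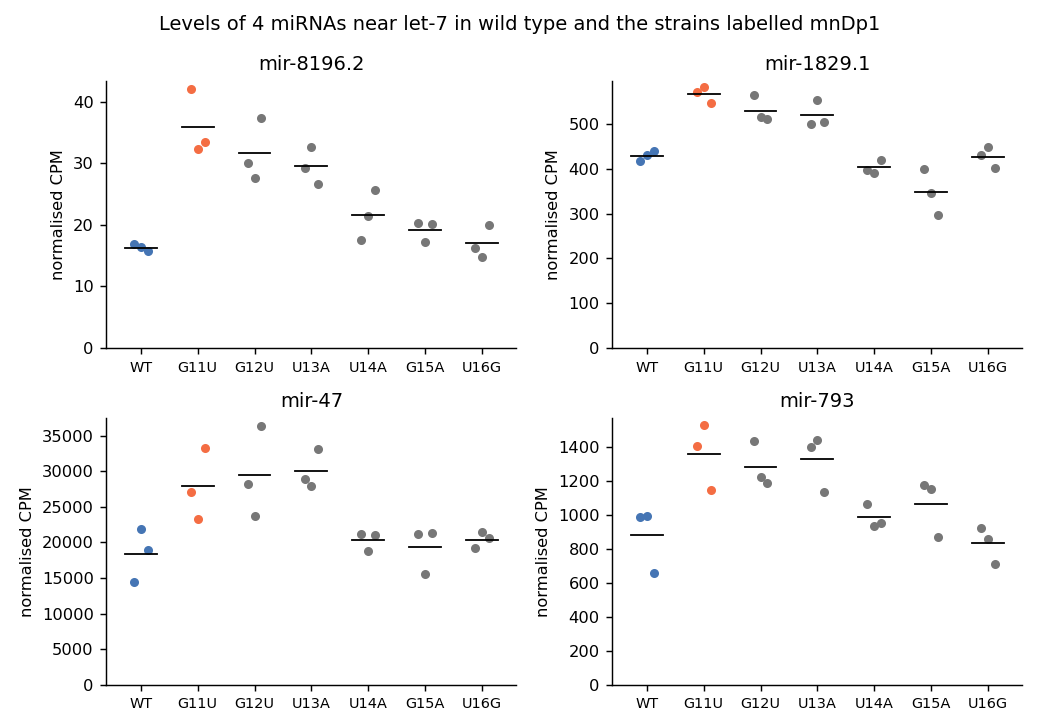
Normalised CPM (vertical axes, from 0) of mir-8196.2, mir-1829.1, mir-47 and mir-793 in each library (points) of WT and the 6 strains labelled mnDp1 (horizontal axes), with group means as lines. In all 4 panels the 3 G11U points (orange) lie above the 3 WT points (blue).

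Tested directly against G12U, no miRNA other than let-7 differed in G11U by edgeR (0 of 129, 0%), with 0 at an unadjusted p under 0.05. Against U13A it was also 0 of 129 (0%), with 1 at an unadjusted p below 0.05 (0.775%). In fits without U9G replicate B both counts stayed at 0 of 133, and an unadjusted p below 0.05 was reached by 3 miRNAs against G12U (2.26%) and by 5 against U13A (3.76%). The intervals still allow differences: for mir-8196.2 the log2 difference was 0.18 from G12U (95% interval -0.26 to 0.63) and 0.28 from U13A (95% interval -0.16 to 0.73).

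Against the mean of the other 5 mnDp1 strains, 2 of 129 miRNAs passed (1.55%), both higher in G11U. They were mir-8196.2, with a log2 difference of 0.64 (95% interval 0.31 to 0.97, edgeR adjusted p = 0.0267), and mir-1829.1, with 0.37 (95% interval 0.17 to 0.56, edgeR adjusted p = 0.0281). The 5 strains were not alike. Neither miRNA passed against G12U or U13A alone, and both averaged lower in U14A, G15A and U16G than in G12U or U13A. In fits without U9G replicate B the count was 2 of 133 (1.5%). Both calls were lost without G11U A, with edgeR adjusted p-values of 0.697 and 0.386, and with no filter on low counts, at 0.120 and 0.308. That of mir-1829.1 was also lost without G11U B (edgeR adjusted p = 0.0887). mir-47 and mir-793 differed by 0.25 (95% interval -0.29 to 0.79) and 0.33 (95% interval -0.19 to 0.85).

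The other members of the let-7 seed family were split in direction. Of its 6 tested members beside let-7, 3 were above 0 and 3 below, with a median log2 change of -0.02, the same as that of all tested miRNAs, and 0 passed (background 0.775%). lin-58, which makes mir-48 and acts earlier than let-7 in the heterochronic pathway, averaged 61837 ± 11219 normalised CPM in WT and 61984 ± 7524 in G11U (SD, n = 3 each). Its log2 change was 0.00 with a wide 95% interval of -0.96 to 0.97. mir-84 and mir-241, which act together with mir-48, had log2 changes of 0.14 (95% interval -0.37 to 0.65) and -0.19 (95% interval -0.82 to 0.43). mir-794 and mir-795, less studied members on chromosome I, had -0.10 and -0.04. Among the 6, only mir-793 passed without U9G replicate B, as given above. With scaling by total counts, 5 of the 6 were above 0.

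The lin-4 family is named for lin-4, the early heterochronic miRNA that represses lin-14. lin-4 was listed at 0, and mir-237, which shares its seed, was the member measured. It stood at 27808, 25306 and 27483 normalised CPM in WT A, B and C and at 12999.6, 20257 and 19700.4 in G11U. All G11U libraries lay below WT, with G11U A lowest. The log2 change was -0.61 (SE 0.200, 95% interval -1.01 to -0.20, edgeR adjusted p = 0.150), -0.62 with the replicate block (edgeR adjusted p = 0.0486) and -0.58 without U9G replicate B (edgeR adjusted p = 0.0842). It was -0.43 without G11U A (edgeR adjusted p = 0.968) and -0.48 by total counts (edgeR adjusted p = 0.510). In a fit of the 6 libraries alone it was -0.66 (edgeR adjusted p = 0.399). Directly against G12U and U13A, mir-237 differed by -0.16 (95% interval -0.57 to 0.24) and -0.05 (95% interval -0.45 to 0.36).

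The mir-35 family, made in embryos and the germline, was high in 1 G11U library. Summed over its 7 tested members, it stood at 12831, 12521 and 13350 normalised CPM in WT A, B and C and at 24535, 12057 and 12374 in G11U A, B and C. mir-35 itself reached 10537 in G11U A against 5658 and 5086 in G11U B and C, and WT lay between 5239 and 6102. With all libraries, 6 of the 7 members had a log2 change above 0, with a median of 0.41, and 0 passed. Without G11U A, 0 of the 7 were above 0, with a median of -0.07. mir-38 differed from the others in being lower in all G11U libraries, at 59.7, 56.0 and 61.5 normalised CPM against 79.8, 89.3 and 67.6 in WT. Its log2 change was -0.42 (95% interval -1.35 to 0.52). G11U A was also the library with the least encoded let-7 and mir-237 and the most mir-8196.2. The part of germline or embryo RNA in those values was not tested.

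**Figure D5:**
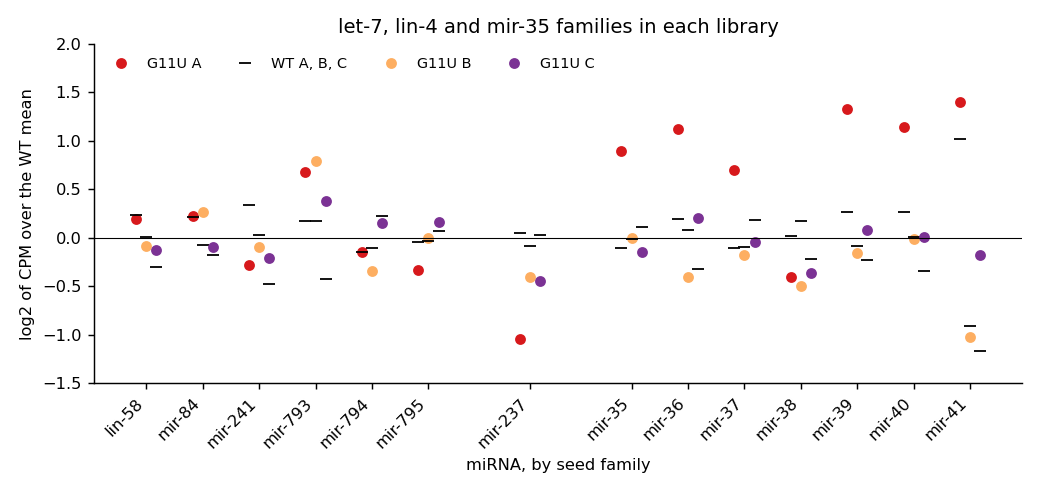
Log2 of the normalised CPM of each library over the WT mean (vertical axis) for members of the let-7, lin-4 and mir-35 families (horizontal axis), with G11U A, B and C as coloured points and the WT libraries as dashes. G11U A (red) lies above the WT mean for every mir-35 family member except mir-38 and is the lowest library for mir-237.

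In the other seed families, 0 members passed over 45 libraries, without U9G replicate B or with the replicate block, except mir-47 of the mir-46 family, given above. All 5 tested members of the mir-51 family, a large family needed for embryo viability and pharynx attachment, were below 0, with a median log2 change of -0.13, but 3 of the 5 were above 0 with scaling by total counts and 2 of the 5 without G11U A. The mir-58 family had 3 of 4 above 0 (median 0.16), but without G11U A it had 1 of 4 (median -0.06). The mir-44 family had 0 of 3 above 0 (median -0.23), or 1 of 3 by total counts, and the mir-63 family 3 of 5 (median 0.26). In the mir-63 family, mir-229 went the other way, at 1118, 1179 and 1272 normalised CPM in G11U A, B and C against 1693, 1341 and 1419 in WT. Its groups did not overlap, with a log2 change of -0.32 (edgeR adjusted p = 0.417). The mir-2 family (0 of 3, median -0.12), the mir-238 family (0 of 3, -0.09) and the mir-72 family (0 of 2, -0.14) were below 0. By total counts, all 3 members of the mir-238 family, 2 of the mir-2 family and 1 of the mir-72 family were above 0. Without G11U A, 2 of the 3 mir-2 family members (median 0.00) and 1 of the mir-238 family were above 0. Of the tissue markers, the glial miRNA mir-228 had -0.09 and the 1 neuronal miRNA tested 0.00, and both overlapped WT. That neuronal miRNA was low, at 27.8, 47.5 and 42.5 normalised CPM in WT and 27.0, 37.8 and 52.9 in G11U. The other neuronal miRNA listed was at 0 in all libraries.

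The remaining miRNAs that did not overlap and ranked among the 5 with the smallest p in either direction did not pass over 45 libraries, without U9G replicate B or with the replicate block. mir-244, on chromosome I, was at 518, 701 and 700.1 normalised CPM in G11U A, B and C against 936, 912 and 820.4 in WT, a log2 change of -0.48 (edgeR adjusted p = 0.417). mir-2220 rested on 9, 10 and 10 reads in G11U and 5, 1 and 1 in WT, with a log2 change of 1.60 (edgeR adjusted p = 0.417). mir-4920, at 0.81, and mir-2209.1, at -1.14, had at most 30 and 20 reads in a library. The last 3 are near the limit of what this depth resolves.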

How the data were processed

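Per the submitters' processing notes, the tools were cutadapt 1.9, Bowtie2 2.3.4.3, Subread 1.6.2 and featureCounts; the genome build, and how reads were sorted into let-7 forms, are not given in the sources used here. The authors deposited counts of reads per miRNA gene and a table of wild-type and mutant let-7 read counts per library, made with a ligation kit per the labels' protocols with no mention of molecular identifiers. RPM was computed here over the miRNA column sums. The deposited miRNA total differed from that sum in 1 library, of U9G, so the sums were used throughout.

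The encoded let-7 form replaced the let-7 row. Counts of all 45 libraries were fitted together with edgeR 4.0.16 (R 4.3.3) by genotype, with TMM scaling, filterByExpr and the quasi-likelihood test, Benjamini-Hochberg adjustment over all tested miRNAs and a threshold of 0.05. The script was tested on counts simulated with a spread estimated without U9G replicate B, so that test does not cover the spread of the main fit. Standard errors came from the F statistic, and levels of let-7 forms were compared by exact permutation with scipy 1.17.1. Alternatives were DESeq2 1.42.0, other scalings, filters, library sets and the replicate block. Same-lettered G11U and WT libraries deviated together from their group means (correlations 0.495, 0.391 and 0.235 for A, B and C over 109 miRNAs). The letters may therefore pair the samples, though no batch is stated. The main fits and the permutation tests left this pairing out, and only the replicate block used it.

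The miRNAs named are let-7, every let-7 or lin-4 family member, other listed miRNAs at an unadjusted p under 0.05, those past the threshold in either main setting or against the other mnDp1 strains, the 5 higher and 5 lower with the smallest p whose groups did not overlap, the tested miRNAs within 1000000 bases of let-7 and the 10 most abundant in WT. mir-8200 and single family members were named after their values were seen. The members, lists and rules were chosen with earlier results of these data known. No sequence was analysed here.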

Additional observations from a re-analysis of the deposited data

How the results depend on the processing

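None of the let-7 and window values that follow changed sign, but medians of lists did. Without G11U A the median turned from 0.41 to -0.07 in the mir-35 family, from 0.16 to -0.06 in the mir-58 family and from -0.12 to 0.00 in the mir-2 family. By total counts it turned to 0.12 in the let-7 family, 0.01 in the mir-51 and mir-2 families, 0.03 in the mir-238 family and 0.08 on the autosomes, and without WT A to -0.04 in the mir-228 family and 0.13 in the let-7 family. The let-7 family median was also just above 0 with DESeq2 size factors, without U9G replicate B and without G11U A. The tested neuronal miRNA turned to -0.16 without WT A. The glial miRNA mir-228 turned to 0.03 by total counts and to 0.05 without G11U A. The sum of both let-7 forms ranged from -0.67 to -0.28 when single libraries were left out. The encoded let-7 change from WT was -1.18 in a fit of the 6 libraries, no longer past the threshold, and ranged from -1.28 to -0.89 when single libraries were left out. With the replicate block it was -1.15 (edgeR adjusted p = 0.0024). The count of other miRNAs past the threshold, 1 over 45 libraries, was 2 with total counts only, with a minimum of 10 counts, by DESeq2's Wald test and with the replicate block, and 0 with the 6 libraries alone. It was 6 without U9G replicate B with the replicate block, which was added after seeing the data, and from 0 to 5 when single libraries were left out. The block changed the call of mir-237 only among the miRNAs named. Against the other 5 mnDp1 strains the count of 2 became 0 with no filter and ranged from 0 to 2. The count of let-7 and lin-4 family members was 1 with the replicate block and from 0 to 1 with libraries left out. The median within 1000000 bases of let-7 was 0.67 with total counts only, 0.65 with a minimum of 10 counts, 0.38 and 0.15 within 500000 and 2000000 bases, and 0.43 to 0.73 with libraries left out. The wild-type form in G11U was 27.6% of its WT level, while its share of 35.2% is of the let-7 reads within G11U, another quantity. By edgeR its log2 change from WT was -2.06, and from the mean RPM it was -1.86. The causes were not tested, but fewer samples estimate the spread in the fit of 6 libraries. Depth limits miRNAs of under about 30 reads per library, and mir-8196.2 lay near that limit in WT, at 34, 29 and 20 reads. mir-4812, which sets the median within 1000000 bases of let-7, lay below it in WT, at 13, 27 and 9 reads.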

Other observations

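Of the 10 most abundant miRNAs of WT, only let-7, counted as its encoded form, passed the threshold in G11U by edgeR. With both forms summed, let-7 did not pass (log2 change -0.50, edgeR adjusted p = 0.758). mir-70 was the most abundant, at 190416 ± 20276 normalised CPM in WT and 138555 ± 30107 in G11U (SD, n = 3 each), and its groups overlapped, with a log2 change of -0.46 (95% interval -1.07 to 0.15, edgeR adjusted p = 0.916). mir-58.1, of a family known for roles in body size and growth signalling, stood at 173177 ± 29113 in WT and 152217 ± 26021 in G11U, with a log2 change of -0.19 (95% interval -0.63 to 0.26). mir-82, of the same family, had 0.04, mir-72 -0.10, mir-51 -0.11, mir-55 -0.28 and mir-66 -0.02. mir-51 spread widely within G11U, at 21234, 45673 and 24920 normalised CPM in A, B and C against 29419 to 36069 in WT.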
